A study of Mus musculus with 2 samples.

Results

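The mouse mitochondrial genome encodes 37 genes, and all 37 were present among the 55414 genes of the deposited matrices. They were chosen by symbol alone, as the genes whose names begin with mt-, and comprise 13 mRNAs, 2 rRNAs and 22 tRNAs. Both strands of this circular genome are transcribed inside the organelle into long precursors, from which the tRNAs are cut out so that the mRNAs and rRNAs between them are freed. Most of the mRNAs receive short poly(A) tails, which complete the stop codon of several of them. The 2 rRNAs carry only very short adenine additions, and mature tRNAs end in CCA with no poly(A) tail. An oligo(dT) primer therefore meets 3 kinds of 3′ end within one set of genes.

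The libraries came from nuclei of C2C12, a mouse myoblast line, isolated with detergent, fixed in methanol and sequenced one nucleus per droplet, with each captured RNA molecule tagged by a unique molecular identifier (UMI). For the in situ polyadenylated library, here the yPAP library, yeast poly(A) polymerase had added adenines to RNA 3′ ends inside the fixed nuclei during a warm incubation. The yPAP nuclei were then washed, spun down and resuspended once more. The standard library had neither the enzyme, the incubation nor this later wash and spin, so the effects of these steps cannot be told apart. Each group had 1 library, so no test was made between them. Every interval below is an exact 95% interval that covers only the error of counting UMIs or, for shares of nuclei, of counting nuclei.

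Barcodes with more than 750 UMIs in the kallisto matrix are called nuclei here, and those with 1 to 100 UMIs are called low-UMI barcodes. There were 1335 nuclei with 1974403 UMIs in the yPAP library and 1123 nuclei with 1382984 UMIs in the standard library. The low-UMI barcodes held 2055642 and 2394255 UMIs. No nucleus barcode was shared between the libraries, whereas 28764 of 240642 barcodes with any UMI in the yPAP library also had one in the standard library. Of 7 myoblast markers, 6 had a UMI in the nuclei of the yPAP library and 7 in the standard library, Msc being at 0 in the former. The 7 together had 1346 and 2087 UMIs, and Myod1 had 15 and 13. All 5 markers of differentiating muscle had a UMI in both libraries, with 112 and 92 UMIs together. Of these, Myh3 had 99 and 77. Of 4 markers of other cells, Epcam and Alb were at 0 in both libraries, Ptprc had 0 and 4 UMIs and Pecam1 had 10 and 35.

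The 5 sequences below are those the results turn on, printed 5′ to 3′ from the GRCm39 build. The first pair comes from the rRNAs, both exonic and on the plus strand of the mitochondrial chromosome. mt-Rnr1, the 12S rRNA, spans chrM:70-1024 and mt-Rnr2, the 16S rRNA, spans chrM:1094-2675. Neither ends in an adenine run. Each is shown at the 20 bases richest in A, in capitals, with the bases on either side, because such a stretch is where an oligo(dT) primer could find the most adenines within the RNA. The mt-Rnr2 window at chrM:1475-1524 held 16 adenines in 20 bases and lay 1166 bases from the 3′ end, and the mt-Rnr1 window at chrM:710-759 held 15 and lay 280 bases from the 3′ end. Whether reads began there was not tested, since the matrices hold no read positions.
mt-Rnr2 window: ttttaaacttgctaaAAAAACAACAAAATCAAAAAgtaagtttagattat
mt-Rnr1 window: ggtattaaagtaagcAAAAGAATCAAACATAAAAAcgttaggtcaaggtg

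The other 3 are the tRNAs with the most UMIs in the STAR matrix. Capitals mark the anticodon, read by a script as the middle of the 7-base loop closed by the best 5-base stem. mt-Tp, the proline tRNA, lies on the minus strand at chrM:15356-15422. mt-Tv, the valine tRNA, lies at chrM:1025-1093, between the 2 rRNAs with no base to spare on either side. mt-Tm, the methionine tRNA, lies at chrM:3845-3913, directly before mt-Nd2. No 31-base stretch of these 3 genes recurred in the nuclear genome.
mt-Tp: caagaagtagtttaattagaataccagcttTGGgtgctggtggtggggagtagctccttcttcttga
mt-Tv: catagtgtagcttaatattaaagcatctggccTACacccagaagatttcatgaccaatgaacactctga
mt-Tm: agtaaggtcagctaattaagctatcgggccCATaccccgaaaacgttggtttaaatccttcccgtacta

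Mitochondrial RNAs were a small part of both libraries, and the 2 rRNAs made up most of that part. In nuclei, all 37 genes together held 0.377% of UMIs in the yPAP library and 0.345% in the standard library. The rRNAs gave 90.1% and 90.8% of these UMIs, the mRNAs 9.68% and 9.14%, and the tRNAs 0.215% and 0.0629%. The median nucleus had 0.280% of its UMIs in mitochondrial genes in the yPAP library and 0.303% in the standard library. The highest nucleus reached 4.65% and 3.73%. No nucleus reached 5%, and 88 and 75 nuclei had no mitochondrial UMI.

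The first comparison asked whether the share of each class differed between the libraries in nuclei. The 13 mRNAs, all subunits of the respiratory chain complexes or ATP synthase, had 721 UMIs in the yPAP library and 436 in the standard library, or 0.0365% and 0.0315% of UMIs. The log2 ratio, yPAP over standard, was 0.21 (0.04 to 0.39). The 2 rRNAs had 6715 and 4332 UMIs, or 0.340% and 0.313%, a log2 ratio of 0.12 (0.06 to 0.17). The 22 tRNAs had 16 and 3 UMIs, a log2 ratio of 1.90 (0.10 to 4.32).

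These ratios were read against the other genes. Rn18s-rs5, named as a related sequence of 18S rRNA, took 48.3% of the UMIs of the yPAP nuclei and 29.3% of those of the standard nuclei. Nuclear protein-coding genes took 29.0% and 55.5%. The median log2 ratio was -1.19 over the 2111 protein-coding genes for which the libraries each reached 50 UMIs. Relative to that median the mRNAs stood at 1.41 (1.23 to 1.58), the rRNAs at 1.31 (1.26 to 1.37) and the tRNAs at 3.10 (1.29 to 5.52). In shares of all UMIs the mitochondrial mRNAs and rRNAs were thus nearly level between the libraries, while the median protein-coding gene was lower in the yPAP library.

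Gene by gene, the 2 rRNAs did not move alike. mt-Rnr1 had 968 UMIs in the yPAP nuclei and 280 in the standard nuclei, or 490 and 202 CPM (UMIs scaled to an equal library total). Its log2 ratio was 1.28 (1.08 to 1.47), a 2.42-fold difference. mt-Rnr2 had 5747 and 4052 UMIs, or 2911 and 2930 CPM. Its log2 ratio was -0.01 (-0.07 to 0.05), so the interval left room for little difference in its share. mt-Rnr1 accordingly gave 14.4% (13.6 to 15.3) of the rRNA UMIs in the yPAP library and 6.46% (5.75 to 7.24) in the standard library. Both rRNAs are cut from one precursor and assembled in equal number into the small and large mitochondrial ribosomal subunits. For each mt-Rnr1 UMI the nuclei had 5.94 mt-Rnr2 UMIs in the yPAP library and 14.5 in the standard library. Per kilobase of gene, mt-Rnr2 had 3633 and 2561 UMIs and mt-Rnr1 had 1014 and 293.

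Among the mRNAs, those of complex I, the NADH dehydrogenase, spanned the widest range. mt-Nd1 had 165 UMIs in the yPAP nuclei and 111 in the standard nuclei, mt-Nd4 had 162 and 95, mt-Nd2 had 81 and 44, and mt-Nd5 had 63 and 24. Their log2 ratios were 0.06 (-0.30 to 0.42), 0.26 (-0.12 to 0.64), 0.37 (-0.18 to 0.93) and 0.88 (0.18 to 1.62). Of these 4 intervals only that of mt-Nd5 excluded 0. mt-Nd6, the one mRNA encoded on the minus strand, had 6 and 8 UMIs. mt-Nd4l had 5 and 3 UMIs, and mt-Nd3 had none in either library.

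The remaining chain genes followed the same split between well and barely counted mRNAs. mt-Cytb, the cytochrome b subunit of complex III, had 170 and 100 UMIs and a log2 ratio of 0.25 (-0.11 to 0.62). mt-Co1, the catalytic subunit of cytochrome c oxidase, had 63 and 41 UMIs and a log2 ratio of 0.11 (-0.48 to 0.71). The other 2 subunits of that complex were near or at 0, with no UMI of mt-Co2 in either library and 0 and 5 UMIs of mt-Co3. Of the ATP synthase subunits, mt-Atp8 had 6 and 5 UMIs and mt-Atp6 had none.

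Per kilobase of gene, mt-Nd1 led the mRNAs with 172 UMIs in the yPAP nuclei and 116 in the standard nuclei, followed by mt-Cytb with 149 and 87.4 and by mt-Nd4 with 118 and 68.9. The order was the same in both libraries. Within each library the counting interval of mt-Cytb overlapped with those of mt-Nd1 and mt-Nd4, while mt-Nd1, at 147 to 201 and 95.4 to 140, did not overlap with mt-Nd4, at 100.2 to 137 and 55.8 to 84.3. mt-Nd2 had 78.0 and 42.4 UMIs per kilobase and mt-Co1 had 40.8 and 26.5. In the yPAP library the interval of mt-Nd2, at 62.0 to 97.0, overlapped with that of neither mt-Nd4 nor mt-Co1.

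With a limit of 20 UMIs in both libraries together, 8 of the 37 genes could be compared in nuclei, and 1 of them, mt-Rnr1, was higher by a log2 ratio of 1 or more. With nuclei taken only above 1500 UMIs, mt-Rnr1 fell short of that size at 0.92 and mt-Nd5 passed it at 1.47. None was lower by as much. Over all 8430 genes that met the limit, 1.46% were higher and 75.7% were lower by that size. The median log2 ratio of the 8 was 0.25, against -1.41 for all genes. With 1 library per group these are counts past a size and not past a test.

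**Figure D1:**
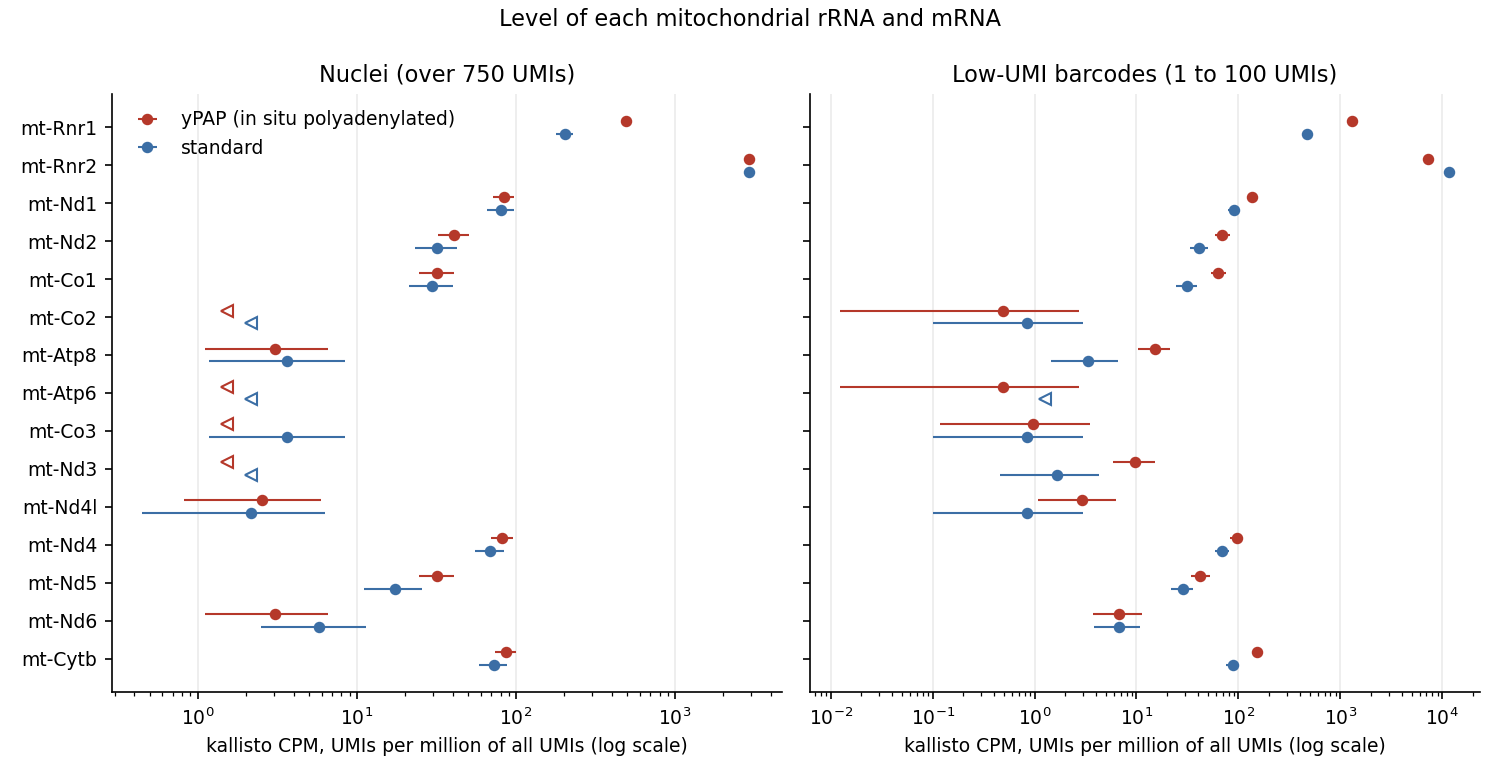
kallisto CPM (log axis) for the 2 rRNAs and 13 mRNAs in nuclei (left) and in low-UMI barcodes (right), with points for the value, bars for the exact 95% Poisson interval and open triangles at the floor of 3 UMIs where a gene had none. mt-Rnr2 sat at 2911 and 2930 CPM in nuclei, and 6 mRNAs stood clear of a group of 7 that had 8 UMIs or fewer.

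The low counts of several mRNAs were set beside their sequence. Stretches of the mitochondrial genome are present as copies in nuclear chromosomes, and a read that matches more than one gene can be dropped or divided by the counting. Each gene was cut into all its 31-base words, the default word length of kallisto, and each word was sought in the nuclear chromosomes and in other annotated genes. For mt-Co2, mt-Atp6, mt-Co3 and mt-Nd4l every word was found in a nuclear chromosome, and for mt-Nd3 99.1% were. In these 5 genes 98.1% to 100% of the words also lay in another annotated gene on the same strand as that gene. The largest nuclear block, at chr1:24650616-24655265, held 4274 words of mitochondrial genes. It carries the annotated pseudogenes Gm28661, Atp6-ps, Gm28437, Gm28438 and Gm10222, which share the words of mt-Co2, mt-Atp6, mt-Co3, mt-Nd3 and mt-Nd4l in that order.

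In STAR counts of the same nuclei, none of these 5 mRNAs had a UMI in either library. The other 8 mRNAs had 1129 UMIs in the yPAP library and 698 in the standard library, with at least 14 UMIs for each gene. In kallisto counts the 5 had 5 and 8 UMIs in all, against 716 and 428 for the other 8. A count of 0 allows up to 3 UMIs, and for these genes it says nothing of the RNA where words are shared. Of the pseudogenes, Gm28438 had 8 and 6 STAR UMIs in nuclei and the other 4 had none.

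Sharing varied among the remaining mRNAs. mt-Nd1 had no word in the nuclear genome and, by STAR, the most UMIs per kilobase of any mRNA, 266 and 192. mt-Co1 and mt-Nd4 had 63.9% and 62.8% of their words in another gene, and stood at 57.0 and 36.2 and at 155 and 92.2 STAR UMIs per kilobase. Levels did not follow the shared percent throughout, since mt-Nd5, with 16.8%, had 68.0 and 27.96 and mt-Nd6, with 7.36%, had 69.4 and 57.8, both below mt-Nd4. mt-Atp8 is a case apart, since all its words recur in the nuclear genome but 7.47% lie in another gene, and it had 28 and 14 STAR UMIs. The part of the shared words in the level of each gene was not tested. Among nuclear genes with at least 20 UMIs in a library only Cep295, a centriole protein gene, shared words with a member. It shared 4 words with mt-Ty and had 99 and 225 kallisto UMIs in nuclei.

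**Figure D2:**
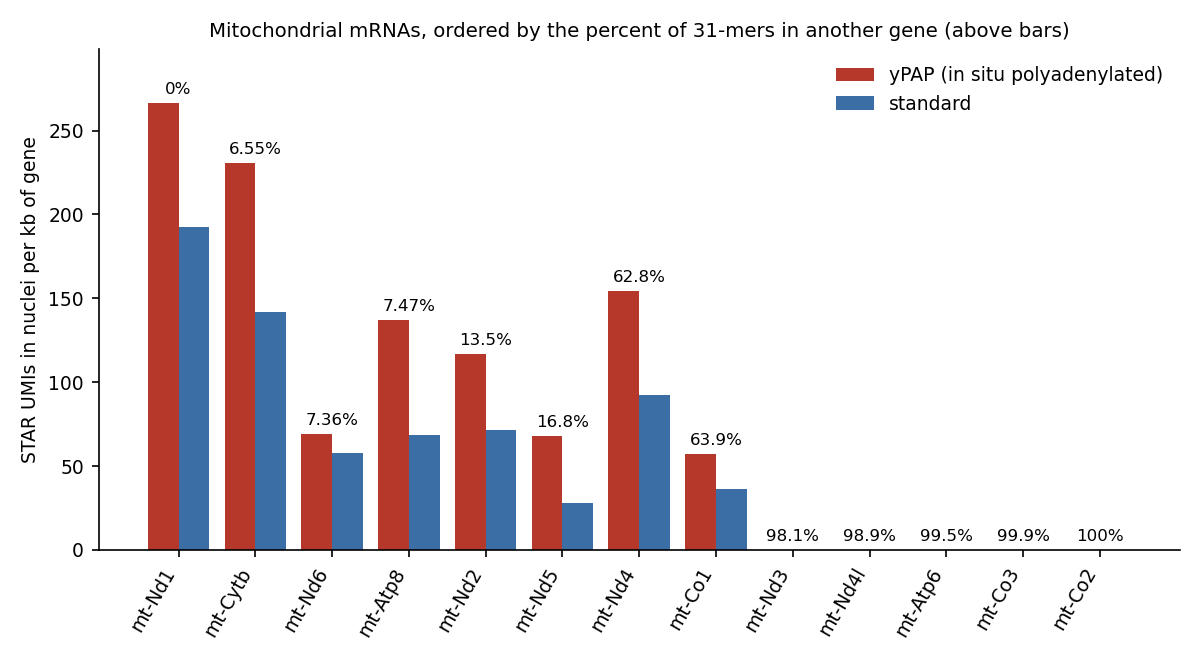
STAR UMIs in nuclei per kilobase of gene for the 13 mitochondrial mRNAs, ordered from left to right by the percent of their 31-base words that lie in another annotated gene, printed above the bars. The 5 genes at 98.1% or more had no UMI in either library, while mt-Nd1, with no shared word, had 266 and 192 UMIs per kilobase.

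The STAR matrix gave a second count of the same nuclei, 1328 of the 1335 yPAP nuclei and all 1123 standard nuclei, with 11545281 and 6237950 UMIs. For all genes STAR counted 5.86 and 4.51 times as many UMIs as kallisto. The mitochondrial mRNAs gained less, 1.57 (1.42 to 1.72) and 1.60 (1.42 to 1.81) times, and so did the rRNAs, 1.99 (1.93 to 2.05) and 1.78 (1.72 to 1.85) times. The tRNAs gained 25.5 times (15.5 to 45.0) in the yPAP library, from 16 to 408 UMIs. In the standard library they went from 3 to 11 UMIs, 3.67 times (0.969 to 20.5).

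The mRNA and rRNA shares by STAR were lower than by kallisto, and their ratios between libraries turned. The mRNAs made up 0.00978% of STAR UMIs in the yPAP nuclei and 0.0112% in the standard nuclei. The log2 ratio was -0.19 (-0.33 to -0.06). The rRNAs made up 0.115% and 0.124%, a log2 ratio of -0.10 (-0.14 to -0.06). Both classes were thus slightly higher in the yPAP library by kallisto and slightly lower by STAR. The background differed too. By STAR, Rn18s-rs5 took 14.5% and 13.9% of UMIs in these nuclei, nearly level, against 48.3% and 29.3% by kallisto. Nuclear protein-coding genes took 60.9% and 74.7% by STAR. Relative to the median protein-coding gene, at -1.92 by STAR, the mRNAs stood at 1.73 and the rRNAs at 1.82, above that gene in both matrices.

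The difference between the 2 rRNAs was present in both matrices but smaller by STAR. mt-Rnr1 had 2642 and 1049 STAR UMIs, a log2 ratio of 0.44 (0.34 to 0.55), and mt-Rnr2 had 10680 and 6676, a log2 ratio of -0.21 (-0.25 to -0.17). mt-Rnr1 gave 19.8% of rRNA UMIs in the yPAP nuclei and 13.6% in the standard nuclei. STAR counted mt-Rnr1 2.74 and 3.75 times as often as kallisto, but mt-Rnr2 1.86 and 1.65 times. mt-Nd1 had 255 and 184 STAR UMIs, a log2 ratio of -0.42 (-0.70 to -0.14). The remaining mRNAs compared by STAR had intervals that included 0, from mt-Nd6 at -0.63 (-1.36 to 0.12) to mt-Nd5 at 0.39 (-0.09 to 0.89).

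**Figure D3:**
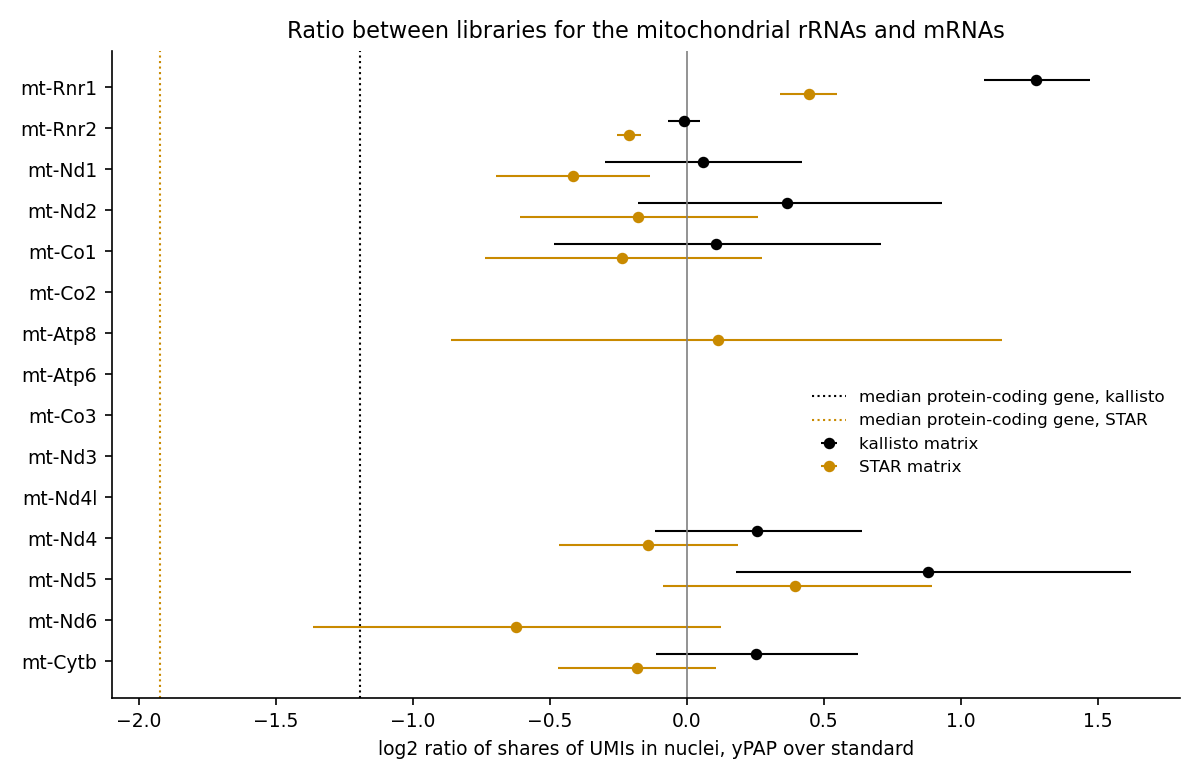
Log2 ratio of shares of UMIs in nuclei, yPAP over standard, for the rRNAs and mRNAs that reached the limit of 20 UMIs, by kallisto (black) and STAR (ochre), with exact 95% intervals of counting error. Dotted lines mark the median protein-coding gene at -1.19 and -1.92, and every gene shown lay to the right of the line of its own matrix.

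Of the 3 classes the tRNAs had the largest ratio between the libraries. In STAR counts of nuclei, 19 of the 22 had a UMI in the yPAP library and 9 in the standard library, with 408 and 11 UMIs in all. The log2 ratio of shares was 4.32 (3.47 to 5.34), and it stood at 6.25 (5.39 to 7.26) relative to the median protein-coding gene. mt-Tp had 92 and 2 UMIs and mt-Tv had 88 and 1. mt-Tm followed with 47 and 2. The log2 ratios of these 3 were 4.64 (2.74 to 7.70), 5.57 (3.06 to 10.89) and 3.67 (1.73 to 6.75).

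The next 5 tRNAs had no UMI in the standard nuclei and at least 12 in the yPAP library. mt-Tl1 and mt-Tl2 both carry leucine, and mt-Tl1 had 31 UMIs against 0, at least 5.58-fold higher than the floor of 3 UMIs per library. mt-Te, the glutamate tRNA, had 28, at least 5.04-fold higher. mt-Tt for threonine had 21, mt-Ts2 for serine had 17 and mt-Tg for glycine had 12. Their ratios were at least 3.78-fold, 3.06-fold and 2.16-fold. Another 11, mt-Td, mt-Tl2, mt-Ti, mt-Ta, mt-Th, mt-Tr, mt-Tw, mt-Tf, mt-Tc, mt-Tk and mt-Tq, had 4 to 9 UMIs in the yPAP nuclei and 0 or 1 in the standard nuclei. The last 3 tRNAs, mt-Tn among them, had none.

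Of 16 mitochondrial genes that met the limit of 20 UMIs in both libraries together by STAR, 6 were higher by a log2 ratio of 1 or more and none was lower by as much. All 6 were tRNAs, mt-Tp, mt-Tv, mt-Tm, mt-Tl1, mt-Te and mt-Tt. Over all 13858 genes that met the limit, 4.39% were higher and 83% were lower by that size. These 6 had 0 to 2 UMIs in the standard nuclei and met the limit only through the yPAP library, so none of them could have come out level.

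The tRNAs were spread over both strands and over many nuclei. The 14 tRNA genes on the plus strand had 273 and 7 STAR UMIs, and the 8 on the minus strand had 135 and 4. A tRNA UMI was found in 326 of 1328 yPAP nuclei, 24.5% (22.3 to 27.0), and in 11 of 1123 standard nuclei, 0.980% (0.490 to 1.75). No nucleus had more than 5 tRNA UMIs in the former or more than 1 in the latter. The nuclei were not equally deep, with medians of 6788 and 4478 STAR UMIs. After each was thinned to 1000 UMIs, with none left out, the shares were 3.39% (2.48 to 4.51) and 0.178% (0.0216 to 0.642). Every cell has mitochondria, so no cell type could serve as a background for free RNA.

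In the STAR barcodes that were not nuclei, mt-Tv had 90 and 3 UMIs, mt-Tp had 84 and 2, and mt-Tm had 45 and 1. Over all deposited STAR barcodes, nuclei included, 3791 and 8474 in number, the tRNAs had 784 and 35 UMIs in nearly equal totals of 20244284 and 20355795. mt-Tv had 178 and 4 UMIs, mt-Tp had 176 and 4, and mt-Tm had 92 and 3. mt-Te, with 47 and 1, and mt-Ts2, with 34 and 1, then had a UMI in the standard library. The 3 tRNAs that had no UMI in nuclei had none over all barcodes either, and every word of each of them recurs in the nuclear genome. Yet mt-Te, mt-Tg and mt-Th share that property and had 47, 21 and 17 UMIs in the yPAP library.

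**Figure D4:**
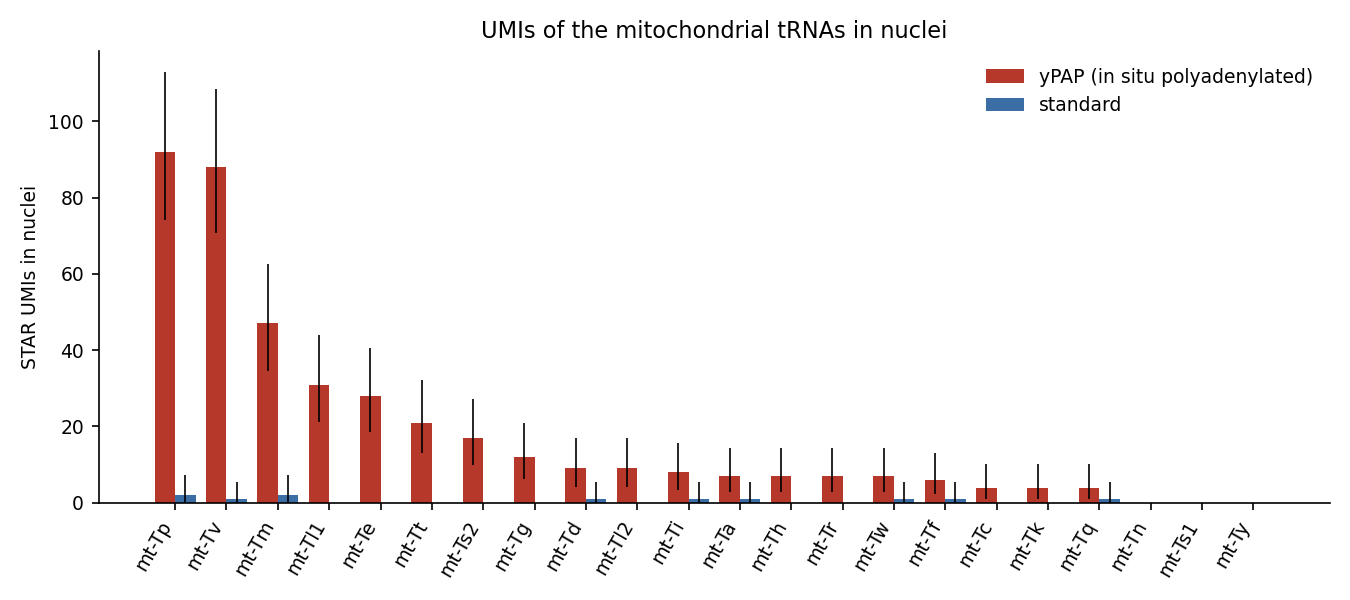
STAR UMIs in nuclei for each of the 22 mitochondrial tRNAs, yPAP (red) and standard (blue), with exact 95% Poisson intervals where a gene had a UMI. mt-Tp and mt-Tv reached 92 and 88 UMIs in the yPAP library and 2 and 1 in the standard library, and no tRNA passed 2 UMIs in the standard nuclei.

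The low-UMI barcodes, most of which held 1 UMI, were described next by kallisto, as a part of the libraries outside nuclei. The STAR matrix held 14 and 22 of these barcodes, with 10 and 22 rRNA UMIs and 1 and 2 mRNA UMIs. These were too few for a second count of the ratios below. There the rRNAs took 0.850% of UMIs in the yPAP library, from 17467 UMIs, and 1.21% in the standard library, from 28875. Their log2 ratio was -0.51 (-0.53 to -0.48), so the direction was opposite to that in nuclei. It was carried by mt-Rnr2, with 14810 and 27757 UMIs and a log2 ratio of -0.69 (-0.72 to -0.66). mt-Rnr1 went the other way, with 2657 and 1118 UMIs and a log2 ratio of 1.47 (1.37 to 1.57), and gave 15.2% and 3.87% of rRNA UMIs. Among 2782 protein-coding genes the median was -1.11 in these barcodes, and relative to it mt-Rnr1 stood at 2.58 and mt-Rnr2 at 0.42.

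The mRNAs had 1225 and 869 UMIs in low-UMI barcodes, or 0.0596% and 0.0363%, a log2 ratio of 0.72 (0.59 to 0.84). mt-Cytb had 313 and 210 UMIs and a log2 ratio of 0.80 (0.54 to 1.05). mt-Nd1 had 279 and 218 and a log2 ratio of 0.58 (0.32 to 0.84). mt-Nd4 with 197 and 165, mt-Nd2 with 143 and 99 and mt-Nd5 with 87 and 68 lay between 0.48 and 0.75. mt-Co1 stood at 1.02 (0.60 to 1.45), from 131 and 75 UMIs. mt-Atp8 had 31 and 8 UMIs and mt-Nd3 had 20 and 4, against 6 and 5 and none in nuclei by kallisto, at log2 ratios of 2.17 (1.02 to 3.51) and 2.54 (0.96 to 4.55). mt-Nd6 had 14 and 16 UMIs. mt-Nd4l had 6 and 2, and mt-Co2, mt-Co3 and mt-Atp6 had 0 to 2.

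The tRNAs had 89 and 7 kallisto UMIs in low-UMI barcodes, a 14.8-fold ratio and a log2 ratio of 3.89 (2.79 to 5.24). mt-Tp led with 19 and 2 UMIs, mt-Tv had 13 and 1, mt-Ts2 had 10 and 0 and mt-Tm had 9 and 0. mt-Tl1 had 5 and mt-Tn had 4, the latter a tRNA with no STAR UMI. With the limit of 20 UMIs, 12 members could be compared, and 5 were higher by a log2 ratio of 1 or more, namely mt-Rnr1, mt-Co1, mt-Atp8, mt-Nd3 and mt-Tp. mt-Atp8 and mt-Nd3 reached the limit through the yPAP library alone and could not have come out level. mt-Tp, with 19 UMIs there, nearly did so. With their standard count in both libraries none of these genes would have met the limit, so it favoured higher values. None was lower by as much. Over 10777 genes, 2.93% were higher and 64.8% lower by that size.

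Set against nuclei of the same library, the low-UMI barcodes had larger shares of rRNA. The rRNA share was 2.50-fold that of nuclei in the yPAP library, a log2 ratio of 1.32 (1.28 to 1.36), and 3.85-fold in the standard library, a log2 ratio of 1.94 (1.90 to 1.99). mt-Rnr2 gave 1.31 (1.26 to 1.35) and 1.98 (1.94 to 2.03), and mt-Rnr1 gave 1.40 (1.29 to 1.51) and 1.21 (1.02 to 1.40). The mRNAs differed less, 0.71 (0.57 to 0.84) and 0.20 (0.04 to 0.37). The tRNAs stood at 2.42 (1.64 to 3.29) in the yPAP library and at 0.43 (-1.70 to 3.01) in the standard library.

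Nuclear genes gave a scale for these differences. Malat1 and Neat1, long noncoding RNAs that stay in the nucleus, had log2 ratios of low-UMI barcodes over nuclei of 0.68 and 0.21 in the yPAP library and of -0.34 and -0.33 in the standard library. The summed mRNAs of cytosolic ribosomal proteins had 0.97 and 0.38, and those of the nuclear-encoded subunits of oxidative phosphorylation had 1.47 and 0.76. Rn18s-rs5 had 0.21 and -0.05. In the standard library the mitochondrial rRNAs, at 1.94, stood above each of these 5, and in the yPAP library, at 1.32, below the oxidative phosphorylation mRNAs.

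By gene, 6 of 12 members compared were at least 1 log2 unit higher in low-UMI barcodes of the yPAP library, and 2 of 9 in the standard library, these 2 being the rRNAs. None was lower by as much. Over all genes compared, 18.5% were higher and 0.91% lower in the yPAP library, and 10.2% were higher and 2.02% lower in the standard library. The 6 were both rRNAs, mt-Atp8, mt-Nd3, mt-Nd6 and mt-Tp. In low-UMI barcodes and nuclei mt-Atp8 had 31 and 6 UMIs, mt-Nd6 had 14 and 6 and mt-Tp had 19 and 1. mt-Atp8 and mt-Nd3 met the limit of 20 UMIs through the low-UMI barcodes alone and could not have come out level. mt-Tp and mt-Nd6 needed their nuclei UMIs as well. With their nuclei count in both ranges none of these genes would have met the limit, so it favoured higher values. For mt-Nd6 the interval included 0, at 1.16 (-0.31 to 2.83), and for mt-Nd3 the value rests on 20 UMIs against none, at least 6.40-fold.

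The low-UMI range was not uniform, which bears on the mRNAs most. In barcodes with 1 to 10 UMIs, which held 178850 and 177887 UMIs, the mRNA share was 0.457% (0.426 to 0.489) in the yPAP library and 0.162% (0.144 to 0.182) in the standard library. In barcodes with 11 to 100 UMIs it was 0.0217% (0.0197 to 0.0240) and 0.0262% (0.0241 to 0.0284), below the shares of nuclei. The 817 and 288 UMIs of the first range included 226 and 80 of mt-Cytb, 179 and 68 of mt-Nd1, 128 and 47 of mt-Nd4, 22 and 2 of mt-Atp8 and 17 and 3 of mt-Nd3. In the second range the log2 ratio of the mRNAs between libraries was -0.27 (-0.46 to -0.08), against 1.50 (1.30 to 1.70) in the first. The higher mRNA share of low-UMI barcodes, and its ratio between libraries, thus rest on the barcodes with 10 UMIs or fewer.

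For mt-Rnr1 the same contrast was smaller and for mt-Rnr2 it ran differently. mt-Rnr1 took 0.441% and 0.139% of UMIs at 1 to 10 UMIs and 0.0995% and 0.0393% at 11 to 100. mt-Rnr2 took 0.787% and 0.624% at 1 to 10 UMIs and 0.714% and 1.20% at 11 to 100. In the standard library the mt-Rnr2 share was highest at 11 to 100 UMIs and was lower in each deeper range, down to 0.253% above 1500 UMIs. mt-Rnr1 was higher in the yPAP library in each of the 7 depth ranges, with intervals that did not overlap. mt-Rnr2 was not. On either side of the limit of 750 UMIs the shares were alike, 0.326% and 0.341% for mt-Rnr2 above 500 and up to 750 UMIs, and 0.303% and 0.320% above 750 and up to 1000.

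**Figure D5:**
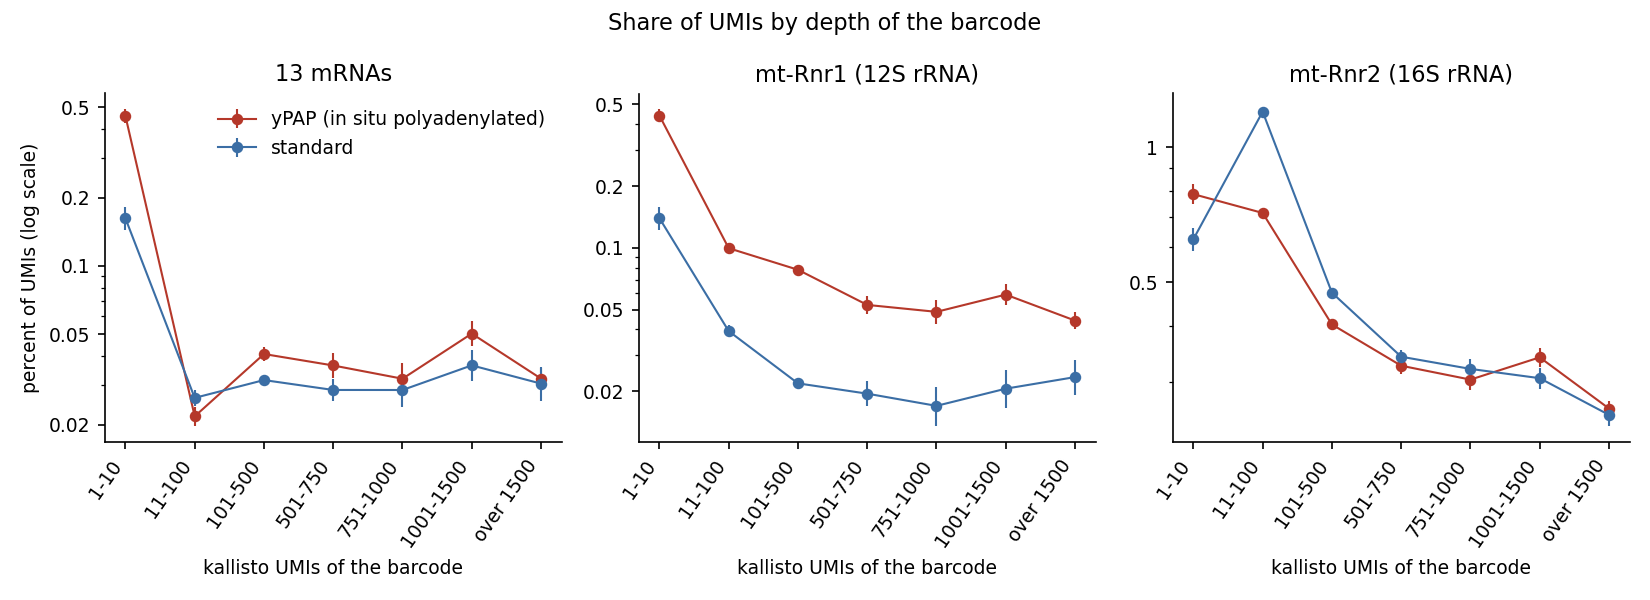
Percent of all kallisto UMIs (log axes) taken by the 13 mRNAs, mt-Rnr1 and mt-Rnr2 in barcodes grouped by their own UMI total, yPAP (red) and standard (blue), with exact 95% binomial intervals. The mRNA share was 0.457% and 0.162% at 1 to 10 UMIs and 0.0217% and 0.0262% at 11 to 100, and mt-Rnr1 was higher in the yPAP library at every depth.

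Mitochondrial UMIs were not spread evenly over nuclei. A UMI of either rRNA was found in 92.6% of yPAP nuclei and 92.4% of standard nuclei, and a mitochondrial mRNA UMI in 27.0% and 23.0%. After thinning to 750 UMIs the shares were 85.1% (83.1 to 87.0) and 86.5% (84.4 to 88.5) for rRNA and 17.8% (15.7 to 19.9) and 17.2% (15.1 to 19.6) for mRNA. The intervals of the libraries thus overlapped at this depth. They are binomial over the nuclei of 1 library each, and nuclei are not replicates. The variance of rRNA UMIs over thinned nuclei was 3.67 times the mean in the yPAP library and 1.91 times in the standard library, against the value of 1 that counting alone would give.

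The nuclei with much mitochondrial rRNA also had more mitochondrial mRNA. In each library the tenth of nuclei with the highest rRNA share was set apart, a split made after the data were seen. The mRNA share of these 134 and 113 nuclei was 0.173% and 0.122%, against 0.0236% and 0.0229% in the remaining nuclei. That is a 7.31-fold difference in the yPAP library, a log2 ratio of 2.87 (2.65 to 3.09), and a 5.35-fold difference in the standard library, 2.42 (2.12 to 2.71). These intervals leave out the spread between nuclei. After thinning to 750 UMIs the variance of mRNA UMIs over all nuclei was 2.74 and 2.09 times the mean. The highest nucleus then had 13 and 7 mRNA UMIs. Outside the tenth the mRNA shares of the 2 libraries were close. The nuclei of the tenth had 1056 and 932 UMIs at the median, against 1093 and 999, and Malat1 shares of 1.67% and 14.1%, against 1.28% and 11.1%. The tRNAs did not follow, with 0 and 1 kallisto UMIs in the tenth, too few to place.

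The nuclear genes that maintain, transcribe and process the mitochondrial genome were described from a list of 50, all in the matrices. In nuclei 35 of them met the limit of 20 UMIs, 27 were lower by a log2 ratio of 1 or more in the yPAP library and none was higher by as much. Over all 8430 genes compared 75.7% were lower and 1.46% higher, so these counts say nothing particular to the list. Their median was -1.56 against -1.41 for all genes. Polg, the mitochondrial DNA polymerase, had 79 and 141 UMIs and a log2 ratio of -1.35 (-1.77 to -0.94). Mtif2, an initiation factor of mitochondrial translation, had 74 and 145 and a log2 ratio of -1.48 (-1.91 to -1.07). Supv3l1, a helicase of the mitochondrial RNA-decay machinery, had 74 and 139 and a log2 ratio of -1.42 (-1.85 to -1.01). The nuclear-encoded oxidative phosphorylation genes, partners of the 13 mitochondrial proteins, had a median of -1.57 over 59 genes, with 47 lower and none higher by that size, beside the same 75.7% and 1.46% of all genes. In sum the latter had a log2 ratio of -1.51 (-1.60 to -1.41), against 0.21 for the mitochondrial mRNAs of the same chain.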

How the data were processed

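The authors trimmed reads with cutadapt 3.4 and quantified them by 2 routes on GRCm39 with GENCODE M28. By the first, kallisto 0.48.0 with bustools 0.41.0 gave the deposited estimated counts, unnormalized UMIs of each gene in every barcode, with 1.10% and 2.65% of entries not whole. By the second, STAR 2.7.10a gave the deposited whole-number UMI counts for some of the barcodes. The sources used here do not give the rule that selected them. Versions are from the submitters' processing notes. Barcode and gene lists were used as deposited.

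UMIs were summed over barcodes per gene and rounded. Nuclei were kept above 750 kallisto UMIs; the limit of 5% mitochondrial UMIs of the study's methods removed none. Doublets were not called. Shares carry Clopper-Pearson 95% intervals and ratios the exact conditional interval of 2 Poisson counts, for counting error only. Where a library had 0 UMIs, 3 were used as its floor, and the ratio is a bound. Genes were counted past a log2 ratio of 1 in size where both libraries together had at least 20 UMIs. Nuclei were thinned without replacement with a fixed seed. Coordinates and sequence came from GRCm39 with GENCODE M39, in which 54749 of 55414 genes were matched by identifier. The ratio code was tested on simulated counts. Python 3.11.15, NumPy 2.4.6, SciPy 1.17.1, pandas 2.3.3 and matplotlib 3.10.9 were used.

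Named genes were all mRNAs and rRNAs, tRNAs with at least 3 UMIs in a library, nuclear genes with at least 20 UMIs in a library that share a 31-base word with a member, Malat1, Neat1 and Rn18s-rs5, and the 3 genes with most UMIs of the mitochondrial gene expression list. The members, lists and comparisons were chosen with earlier results of these data known. With 1 library per group no p-value was computed.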

Additional observations from a re-analysis of the deposited data

Results flagged for a closer look

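The summed rRNAs differed in direction between the 2 kinds of barcode, with a log2 ratio, yPAP over standard, of 0.12 in nuclei and of -0.51 in low-UMI barcodes, and neither interval of counting error included 0. The difference between these ratios was not tested. Each direction turned under another setting, with nuclei at -0.10 by STAR and low-UMI barcodes at 0.69 by kallisto when limited to 1 to 10 UMIs. By STAR the low-UMI barcodes had 10 and 22 rRNA UMIs, too few to compare the directions within that matrix. As shares of nuclear protein-coding UMIs by kallisto both were positive, at 1.05 and 0.33.

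Signals were also present in barcodes outside both ranges. In barcodes above 100 and up to 750 kallisto UMIs the tRNAs had 41 and 12 UMIs in totals of 2731095 and 6816214, a log2 ratio of 3.09 (2.14 to 4.16), and the mRNAs had 1085 and 2109, a log2 ratio of 0.36 (0.25 to 0.47). In the STAR barcodes that were not nuclei the tRNAs had 376 and 24 UMIs, a log2 ratio of 4.67 (4.07 to 5.33).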

How the results depend on the processing

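No paired analysis was possible because the groups share 1 replicate number only, with a single library on each side. Ratios are log2, yPAP over standard unless 2 barcode ranges are compared, and the cause of no shift was tested except where the setting names it.

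In nuclei, the STAR matrix over the same barcodes turned the mRNAs to -0.19 and the rRNAs to -0.10, and moved the tRNAs to 4.32. Over all deposited STAR barcodes, an alternative chosen after seeing the data, the values were -0.12, -0.24 and 4.49. As shares of UMIs of nuclear protein-coding genes the mRNAs and rRNAs stood at 1.15 and 1.05, and with the median protein-coding gene set to 0 at 1.41 and 1.31. The number of members higher past the size was 6 by STAR, 2 with nuclei above 500 UMIs, 6 as shares of protein-coding UMIs and 8 with that median set to 0. It stayed at 1 with nuclei above 1500 UMIs, but the gene was then mt-Nd5, at 1.47, with mt-Rnr1 at 0.92. With a limit of 1 UMI per gene 1 member, mt-Co3 with 0 and 5 UMIs, was lower.

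In low-UMI barcodes, the mRNA ratio was 1.50 at 1 to 10 UMIs, turned to -0.27 at 11 to 100, and was 0.38 above 100 and up to 500 and 1.55 as a share of protein-coding UMIs. The rRNA ratio turned to 0.69 at 1 to 10 UMIs and to 0.33 as a share of protein-coding UMIs, and was -0.61 and -0.045 in the next 2 ranges. The tRNA ratio was 1.90 at 1 to 10 UMIs.

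Against nuclei of the yPAP library, the mRNAs were at 3.64 at 1 to 10 UMIs, turned to -0.75 at 11 to 100, and were at 0.16 above 100 and up to 500. They were at 0.55 as a share of protein-coding UMIs and at 0.90 against nuclei above 1500 UMIs. In the standard library they were at 2.36 at 1 to 10 UMIs and turned to -0.27 and -0.0057 in the next 2 ranges. The rRNAs of the yPAP library were at 1.85, 1.26 and 0.50 in the 3 ranges, at 1.16 as a share of protein-coding UMIs, and at 1.28 and 1.48 against nuclei above 500 and above 1500 UMIs. In the standard library they were at 1.29 and 0.66 at 1 to 10 and above 100 UMIs, at 1.89 as a share of protein-coding UMIs, and at 1.85 and 2.13 against those nuclei. The tRNAs of the yPAP library were at 3.37 and 0.97 in the lowest and highest range, and those of the standard library at 3.37 in the lowest.

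Unthinned, 27.0% and 23.0% of nuclei had an mRNA UMI and 92.6% and 92.4% an rRNA UMI. Thinned to 500 UMIs these were 12.7% and 13.1%, and 73.0% and 74.0%. The other 57 values stayed within the counting interval of the value reported, or within 1.5 times the count. Of the 8 genes compared singly in nuclei only mt-Rnr1 and mt-Nd5 had intervals that excluded 0, and neither ratio turned. Over the 8 genes 36 alternative values stayed within the interval. Another 28 left it, among them all those scaled to protein-coding genes. mt-Co1 went to -0.90 with nuclei above 1500 UMIs, and by STAR mt-Nd1 went to -0.42 and mt-Rnr2 to -0.21. Depth limits the tRNAs most, with 3 kallisto and 11 STAR UMIs in the standard nuclei.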
